A study of Mus musculus with 90 samples.

Results

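Exercise training was examined in mesenchymal stromal cells of wild-type mouse hindlimb muscle, in the 6 of the 90 libraries whose labels read exercise training (EXT, 3 libraries) or sedentary of the same cohort (SED, 3 libraries). The cells (MmSCs) had been double-sorted as PDGFRa+ Sca1+ CD31- CD45- DAPI- cells from mice of 8 to 10 weeks, and each library held the polyA RNA of 1000 of them. EXT mice had trained and SED mice had not; the labels do not say how or for how long they trained. The wider study followed the mechanosensitive channel Piezo1 in such cells after acute exercise, a channel agonist and toxin injury, and this cohort compares the cells of trained and sedentary mice. No label states that the replicates came from separate animals, so p-values measure the spread between these samples.

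Stromal cells of muscle, also called fibro-adipogenic progenitors, lie between the fibres and make and remodel the connective tissue around them. They secrete collagens, the metalloproteases and cathepsins that break matrix down, the inhibitors that restrain these proteases, and growth factors and chemokines that reach muscle stem cells and leukocytes. They also sense mechanical load through channels, integrins and the actin and microtubule cytoskeleton.

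The libraries held 7045068 to 7341189 counts for EXT and 6323605 to 7130462 counts for SED. Levels are given as CPM, a gene's count divided by the library size, corrected by the TMM method, and scaled alike in all libraries; they are not divided by gene length, so levels of different genes are not compared. Summed over 22 stromal markers, levels were 187903 to 218775 CPM in EXT and 178049 to 221748 CPM in SED libraries. Within that sum, single markers ran in opposite directions across the SED libraries. Col3a1 measured 50019, 42060 and 37292 CPM in EXT and 12163, 25061 and 51094 CPM in SED libraries. Gsn measured 100769, 87927 and 113580 CPM in EXT and 120245, 115572 and 101567 CPM in SED libraries. Ptprc, the leukocyte marker CD45, was at or below 0.141 CPM in EXT and 0.960 CPM in SED libraries. The 16 macrophage and monocyte markers summed to 18.5 to 22.9 CPM in EXT and 13.3 to 22.8 CPM in SED libraries, and the muscle stem cell regulator Pax7 was at or below 0.140 CPM in every library. Endothelial markers summed to 423 to 459 CPM in EXT and 404 to 489 CPM in SED libraries, most of it Eng. Tek gave 121 to 130 CPM of that sum in EXT and 106 to 140 CPM in SED libraries. Cdh5, which defines endothelium, was at or below 0.420 CPM. Tenocyte markers summed to 2404 to 4542 CPM in EXT and 1542 to 3498 CPM in SED libraries, and none of the 7 tested was called. Their part in the matrix results below was not tested. Markers of muscle stem cells and myoblasts summed to 243 to 253 CPM in EXT and 187 to 229 CPM in SED libraries, without overlap, and most of that sum was Vcam1, which stromal cells also make. In bulk samples, fewer cells of a type and less RNA per cell cannot be told apart.

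Of 12802 genes tested, 62 (0.484%) were called, meaning an adjusted p under 0.05 in edgeR's quasi-likelihood test with Benjamini-Hochberg adjustment; all adjusted p-values below are from that test. EXT was higher for 36 of them (0.281% of the genes tested) and lower for 26 (0.203%). In all 62 the 3 EXT libraries lay outside the range of the 3 SED libraries, as they did in 18.3% of all genes tested (9.04% with EXT above and 9.24% with EXT below). Genes that rose included matrix and lysosomal proteases, a protease inhibitor and a hormone receptor, and genes that fell included tubulins, cytoskeletal regulators, intermediate filaments and immediate early genes. The number of calls depended on single libraries: it was 12 without EXT 1, 22 without EXT 2, 23 without EXT 3, 42 without SED 1, 18 without SED 2 and 117 without SED 3. Of the 60 called genes named here, leaving out EXT 1 ended 49 calls, EXT 2 ended 42, EXT 3 ended 43, SED 1 ended 33, SED 2 ended 46 and SED 3 ended 12. The calls of 9 genes held in each of these 6 fits, those of Lhfpl2, Mmp3, Ackr2, Timp1, Dio2, Tuba1b, Emb, Des and Vdr. With the spread estimated together with the acute wild-type cohort, 4 calls were made (Vdr, Dio2, Ctsk and Tuba1b). The other 56 named genes lost their calls in that fit, Lhfpl2, Mmp3, Ackr2, Timp1, Emb and Des included. The adjusted p there was 0.548 for Mmp3 and 0.493 for Timp1. None of the 60 changed direction in any of these fits.

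**Figure D1:**
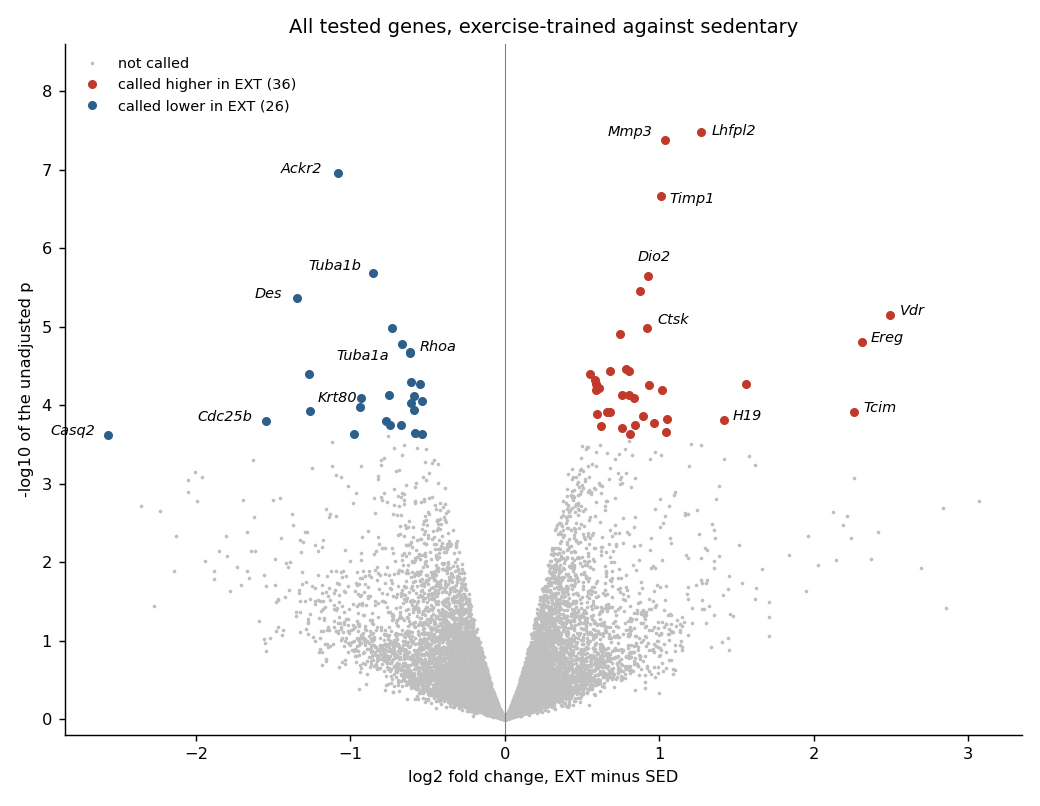
Each point is 1 of the 12802 genes tested, by log2 fold change (EXT minus SED, x axis) and by −log10 of the unadjusted p of edgeR (y axis). The 36 genes called higher in EXT are red and the 26 called lower are blue; Lhfpl2, Mmp3, Ackr2 and Timp1 lie at the top.

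A protease of the matrix was among the 2 genes with the smallest p. Mmp3 (stromelysin 1, a secreted protease that cuts proteoglycans, fibronectin and other proteases' proforms; chromosome 9 from 7445822 to 7455975, mm10) measured 360, 341 and 372 CPM in EXT, against 160, 184 and 177 CPM in SED libraries. The lowest EXT library stood well above the highest SED library, and the log2 difference was 1.04 (SE 0.10, adjusted p = 0.000268, and at most 0.00389 with 1 library left out). Mmp14, a membrane-anchored collagenase that also activates pro-MMP2, measured 153, 170 and 172 CPM in EXT and 97.5, 104 and 126 CPM in SED libraries (log2 0.60, SE 0.12, adjusted p = 0.0369, up to 0.155 with 1 library left out). Its substrate Mmp2, a gelatinase, measured 4412, 4200.5 and 4400.2 CPM in EXT and 1955, 2844 and 3476 CPM in SED libraries. These groups did not overlap, but the SED libraries spread widely and the difference was not called (log2 0.65, adjusted p = 0.105).

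Of 18 metalloproteases, 11 were tested, of which 2 rose, 0 fell and 9 were not called. Over all genes, 36 of 12802 (0.281%) were called higher and 26 (0.203%) lower. The median log2 difference of the 11 was 0.34, against -0.01 over all genes tested. Of the 11, 6 had a positive difference at an unadjusted p under 0.05, against 0 with a negative one. Over all 12802 genes tested, 784 were positive and 786 negative at that threshold. The 24 ADAM and ADAMTS proteases tested had no call and a median of 0.00.

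Timp1, a secreted inhibitor of most metalloproteases (chromosome X from 20870166 to 20874735), rose beside them. It measured 229, 226 and 276 CPM in EXT and 120, 114 and 129 CPM in SED libraries (log2 1.01, SE 0.11, adjusted p = 0.000689, at most 0.0130 with 1 library left out). It was the only call among 11 protease inhibitors tested. Other inhibitors had values of the opposite sign without a call: Timp3 measured 320.1, 375 and 309 CPM in EXT and 685, 438 and 399 CPM in SED libraries (adjusted p = 0.187), and Reck, a membrane-bound inhibitor, measured 40.3, 51.0 and 45.5 CPM in EXT and 66.7, 66.4 and 64.4 CPM in SED libraries (adjusted p = 0.0836).

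Among lysosomal genes, 2 cathepsins rose. Ctsk (cathepsin K, a cysteine protease that degrades fibrillar collagen) measured 614, 593 and 648 CPM in EXT, against 259, 318 and 404 CPM in SED libraries. EXT lay above SED throughout, with a log2 difference of 0.92 (SE 0.14, adjusted p = 0.0122); the call was lost without EXT 1, EXT 3 or SED 2 (adjusted p up to 0.0737). Ctsf, another cysteine cathepsin, measured 212, 208 and 193 CPM in EXT and 107, 130 and 145 CPM in SED libraries (log2 0.68, SE 0.12, adjusted p = 0.0246, up to 0.121 with 1 library left out). Among 23 cathepsins and lysosomal hydrolases tested, these 2 rose and 0 fell. The shares over all genes were 36 of 12802 (0.281%) called higher and 26 (0.203%) called lower. No member of the list was called without EXT 1, EXT 3 or SED 2, and 4 were without SED 3. The difference was positive in 22 of the 23, against 6171 of 12802 over all genes, with a median of 0.21, and 11 were positive at an unadjusted p under 0.05, against 0 negative (784 and 786 of 12802 over all genes). Uncalled members with such values were Ctsd (355, 406 and 391.7 CPM in EXT, 267, 267 and 314 CPM in SED libraries, adjusted p = 0.0836), the principal aspartic protease of lysosomes, and Npc2, which carries cholesterol out of them (adjusted p = 0.0942). Both called cathepsins were lowest in SED 1 and highest in SED 3 among the SED libraries. Members that vary together between libraries are not independent, so these counts are descriptive.

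Outside that list, 3 further called genes belong to the endolysosomal system. Atp6v1b2, a subunit of the proton pump that acidifies lysosomes, measured 358, 377 and 362 CPM in EXT and 189, 245 and 277 CPM in SED libraries (log2 0.63, SE 0.13, adjusted p = 0.0424). It was the 1 call among 18 proton pump subunits tested, a family gathered by symbol after the values were seen. Over all genes, 36 of 12802 (0.281%) were called higher. The family's median was 0.17, and 15 differences were positive, against 6171 of 12802 over all genes. Pld3, an exonuclease of endolysosomes, rose by a log2 value of 0.58 (adjusted p = 0.0260), and Smpdl3a, an acid sphingomyelinase-like phosphodiesterase, by 0.59 (adjusted p = 0.0260). With 1 library left out the adjusted p of these 3 genes reached 0.167, 0.133 and 0.145.

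**Figure D2:**
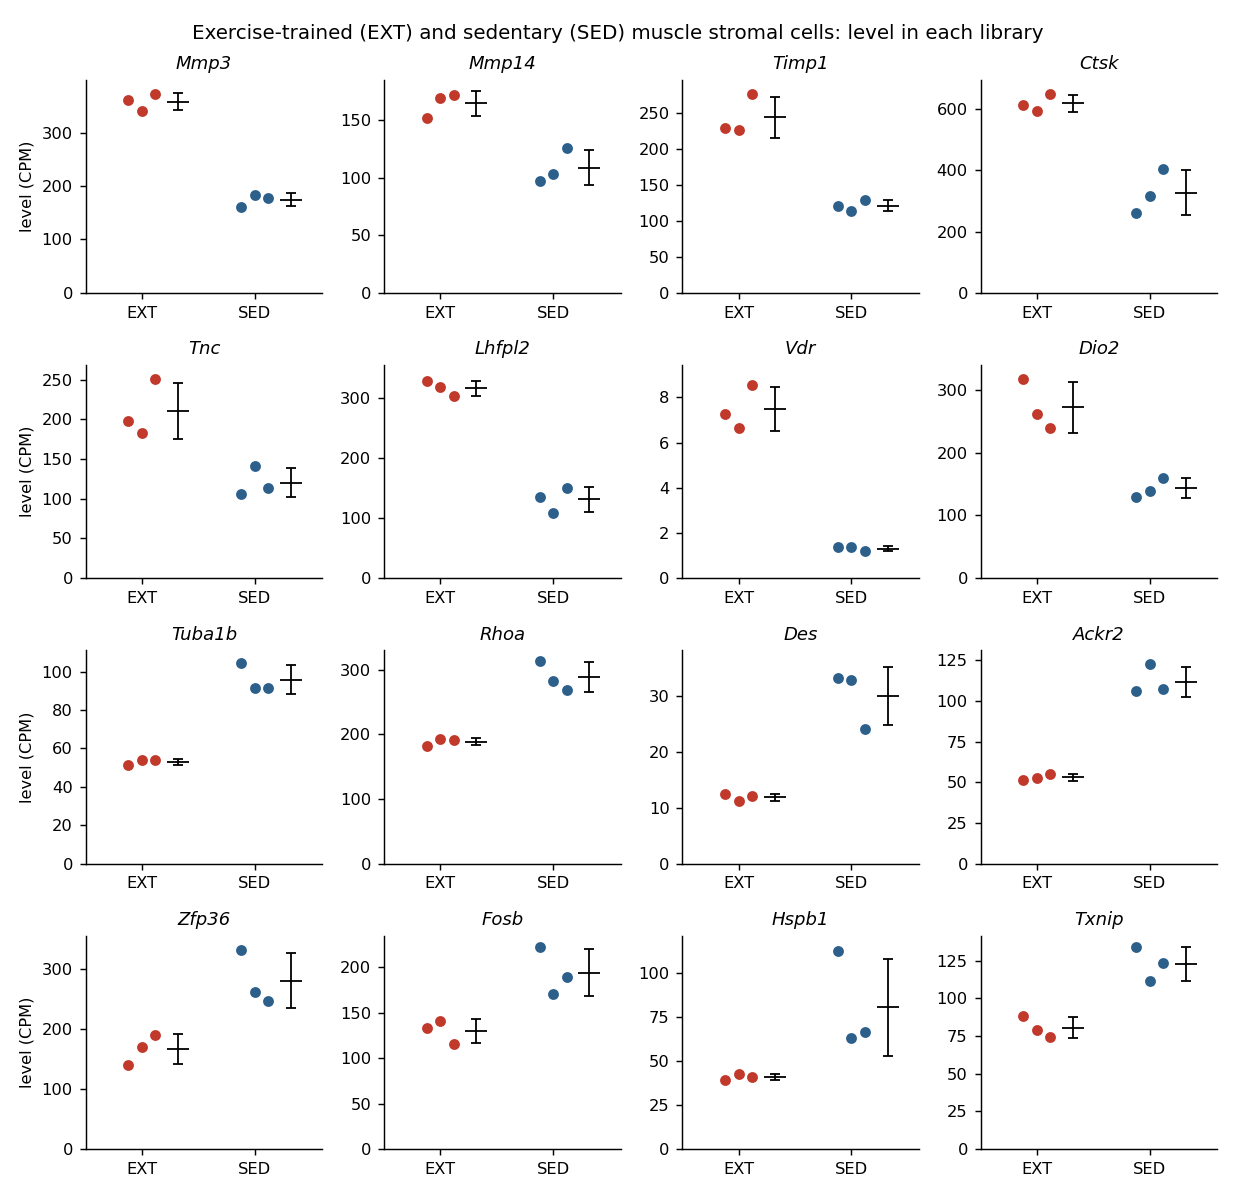
CPM (y axes, from 0) of 16 called genes in each EXT library (red, left) and SED library (blue, right), with the mean and SD of each group in black (n = 3). In each of these genes the groups do not overlap; the top 8 panels are higher and the lower 8 panels are lower in EXT.

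Matrix proteins and matrix-associated signals changed gene by gene. Tnc (tenascin C, an adhesion-modulating glycoprotein made where tissue is loaded or repaired) measured 198, 182 and 250 CPM in EXT and 106, 141 and 114 CPM in SED libraries (log2 0.81, SE 0.14, adjusted p = 0.0246, up to 0.0968 with 1 library left out). Ccn4, a matricellular protein of the CCN family, measured 31.4, 42.7 and 42.3 CPM in EXT and 22.4, 15.6 and 19.6 CPM in SED libraries (log2 1.02, SE 0.18, adjusted p = 0.0274, up to 0.147 with 1 library left out). These were the 2 calls among 20 matricellular genes tested, against 36 of 12802 (0.281%) called higher over all genes. The median of the list was 0.07. Fbln7, a fibulin of the matrix, rose as well, with 255, 228 and 286 CPM in EXT and 120, 155 and 172 CPM in SED libraries (log2 0.79, adjusted p = 0.0246, up to 0.114 with 1 library left out).

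The widest gap of the matricellular list was not called. Postn (periostin, a matrix protein of loaded connective tissue) measured 819, 982 and 1064 CPM in EXT and 65.7, 95.97 and 281 CPM in SED libraries. The groups were far apart, but the SED libraries differed among themselves by several fold, and the log2 difference of 2.69 had an adjusted p of 0.243. Of 10 fibrillar collagens tested none was called, with a median of 0.24. Col1a1 measured 20127, 14525 and 15012 CPM in EXT and 5302, 9559 and 21111 CPM in SED libraries. Its SED libraries spread several fold, as did those of Col3a1, and in both genes SED 3 exceeded every EXT library. For these genes the lack of a call does not show that levels were alike. Col27a1, the member with the smallest p, had the opposite sign to the median. It measured 17.5, 17.1 and 16.7 CPM in EXT and 30.0, 27.6 and 25.8 CPM in SED libraries (adjusted p = 0.0780). At an unadjusted p under 0.05, 1 collagen of that list was positive and 1 negative.

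Among receptors, hormones and growth signals, the largest fold belonged to Vdr, the nuclear receptor for the active form of vitamin D (chromosome 15 from 97854425 to 97910630). It measured 7.28, 6.63 and 8.54 CPM in EXT and 1.38, 1.37 and 1.18 CPM in SED libraries, so both levels were low and they did not overlap. The log2 difference was 2.50 (SE 0.37, adjusted p = 0.00999, at most 0.0497 with 1 library left out). Dio2, the deiodinase that turns the prohormone T4 into active thyroid hormone, measured 317, 261 and 239 CPM in EXT and 129, 140 and 160 CPM in SED libraries (log2 0.93, SE 0.12, adjusted p = 0.00481, at most 0.0497 with 1 library left out). Ednra, the endothelin receptor type A, rose by a log2 value of 0.94 (adjusted p = 0.0260, up to 0.145 with 1 library left out).

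Ereg (epiregulin, a ligand of the EGF receptor) measured 13.1, 12.97 and 6.02 CPM in EXT and 2.15, 2.06 and 2.22 CPM in SED libraries (log2 2.31, SE 0.36, adjusted p = 0.0153). EXT 3 was lower than the other EXT libraries by more than 2-fold, and the call was lost without EXT 1, EXT 2 or SED 2 (adjusted p up to 0.104). It was the 1 call among 4 EGF receptor ligands tested. H19, an imprinted long noncoding RNA expressed from the maternal allele, measured 11.5, 24.8 and 19.7 CPM in EXT and 5.82, 7.27 and 7.83 CPM in SED libraries (log2 1.42, SE 0.28, adjusted p = 0.0409, up to 0.186 with 1 library left out). It was the 1 call among 22 imprinted growth genes tested, whose median was 0.07.

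The smallest p belonged to Lhfpl2, a member of the LHFPL tetraspan family of membrane proteins (chromosome 13 from 94057796 to 94195409). It measured 328, 318 and 303 CPM in EXT and 135, 108 and 150 CPM in SED libraries (log2 1.27, SE 0.12, adjusted p = 0.000268, at most 0.00389 with 1 library left out). Emb, embigin, a partner of monocarboxylate transporters at the cell surface, measured 103, 111 and 99.7 CPM in EXT and 50.3, 55.1 and 65.0 CPM in SED libraries (log2 0.88, SE 0.12, adjusted p = 0.00642, at most 0.0497 with 1 library left out). Slc2a1, the glucose transporter GLUT1, was the 1 call among 31 genes of glucose transport, glycolysis and hypoxia, whose median was -0.05 (log2 0.76, adjusted p = 0.0443, up to 0.148 with 1 library left out).

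The other genes called higher fall in no shared list. Srxn1, sulfiredoxin, which repairs overoxidised peroxiredoxins, measured 240, 221 and 216 CPM in EXT and 89.0, 133 and 155 CPM in SED libraries (log2 0.85, adjusted p = 0.0424). Plk2, a polo-like kinase and p53 target, measured 123, 149 and 121 CPM in EXT and 66.8, 60.6 and 92.6 CPM in SED libraries (log2 0.83, adjusted p = 0.0287). It was the 1 call among 19 senescence and p53 target genes. The rest ran from a log2 value of 0.55 for Top1, DNA topoisomerase I, to 2.26 for Tcim: Neu2 (a sialidase), Msc (the repressor musculin), E2f6 (a repressive E2F), Fnip2 (a folliculin partner), Polr1b (RNA polymerase I), Arpc3 (an Arp2/3 subunit), B4galt5 (a galactosyltransferase), Wdr3 (ribosome assembly), Slc39a14 (a zinc importer), Klhl21 (a ubiquitin ligase adaptor) and Zwint (a kinetochore protein). Each of these 15 genes lost its call in at least 1 of the fits without 1 library.

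Chemokine genes split. Ackr2, an atypical receptor that binds and removes inflammatory CC chemokines, measured 51.2, 52.6 and 55.2 CPM in EXT and 106, 122 and 107 CPM in SED libraries. EXT lay below SED throughout, with a log2 difference of -1.08 (SE 0.11, adjusted p = 0.000469, at most 0.00961 with 1 library left out). Cxcl2, a chemoattractant for neutrophils, measured 177, 145 and 191 CPM in EXT and 97.3, 102 and 106 CPM in SED libraries (log2 0.75, SE 0.12, adjusted p = 0.0134); its call was lost without EXT 1, EXT 3 or SED 2 (adjusted p up to 0.0908). Of 21 chemokine genes tested, these were the 1 that rose and the 1 that fell, and the median was 0.07. Cxcl1, the close relative of Cxcl2, measured 2219.6, 1905 and 2322 CPM in EXT and 3218, 2235 and 2644 CPM in SED libraries and was not called (adjusted p = 0.325), and neutrophil markers summed to 0.990 to 1.89 CPM in EXT and 0.920 to 2.33 CPM in SED libraries. None of 18 cytokine genes was called.

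Lower genes of the cytoskeleton were led by tubulins, the subunits of microtubules. Tuba1b (chromosome 15 from 98931425 to 98934565) measured 51.2, 53.9 and 54.0 CPM in EXT and 105, 91.4 and 91.5 CPM in SED libraries (log2 -0.85, SE 0.11, adjusted p = 0.00481, at most 0.0395 with 1 library left out). Tuba1a measured 309, 337 and 358 CPM in EXT and 578, 482 and 536 CPM in SED libraries (log2 -0.67, SE 0.11, adjusted p = 0.0153, up to 0.116 with 1 library left out). Tubb5, a beta-tubulin, measured 172, 193 and 212 CPM in EXT and 315, 276 and 288 CPM in SED libraries (log2 -0.61, SE 0.11, adjusted p = 0.0260, up to 0.154 with 1 library left out). All 3 groups of EXT values lay below those of SED. The 13 tubulins tested were a family gathered by symbol after the values were seen. Of these, 3 fell and 0 rose, against 26 lower (0.203%) and 36 higher (0.281%) of 12802 over all genes. Their median was -0.36, and 11 differences were negative, against 6630 of 12802 over all genes. Without EXT 1 or EXT 2, 1 tubulin was called. Tuba1a and Tuba1b have near-identical coding sequences. The labels do not say how reads matching both were counted, so the split between them is uncertain.

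Further called genes of the cytoskeleton and its adhesions were lower. Rhoa, the GTPase that drives stress fibre assembly, measured 182, 193 and 191 CPM in EXT and 314, 283 and 269 CPM in SED libraries (log2 -0.61, SE 0.10, adjusted p = 0.0171, up to 0.120 with 1 library left out). Arhgef2, a microtubule-bound activator of RhoA, measured 38.0, 44.8 and 53.5 CPM in EXT and 74.3, 70.7 and 72.6 CPM in SED libraries (log2 -0.67, adjusted p = 0.0424, up to 0.192 with 1 library left out). Tns2, a tensin of focal adhesions, fell by 0.61 on the log2 scale (adjusted p = 0.0171), Lasp1, an actin-binding adaptor, by 0.59 (adjusted p = 0.0360), and Akap12, a kinase scaffold, by 0.59 (adjusted p = 0.0287). These 3 lost the call in at least 1 fit without 1 library. No integrin of 19 tested was called.

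Of the intermediate filament genes, 2 fell. Des (desmin, the intermediate filament of muscle and of contractile stromal cells) measured 12.4, 11.1 and 12.04 CPM in EXT and 33.3, 32.9 and 24.1 CPM in SED libraries (log2 -1.34, SE 0.19, adjusted p = 0.00685, at most 0.0497 with 1 library left out). Krt80, a keratin, measured 5.82, 10.6 and 7.70 CPM in EXT and 16.7, 21.3 and 19.8 CPM in SED libraries (log2 -1.26, SE 0.24, adjusted p = 0.0360, up to 0.170 with 1 library left out). These were the 2 calls among 23 contractile and cytoskeletal genes tested, against 26 of 12802 (0.203%) called lower over all genes. The median of the list was -0.07. Muscle fibre markers summed to 38.1 to 43.7 CPM in EXT and 35.6 to 45.5 CPM in SED libraries, and pericyte and smooth muscle markers, Des among them, to 132 to 143 CPM in EXT and 129 to 169 CPM in SED libraries, so neither sum separated the groups.

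Casq2, a calcium-binding protein of the sarcoplasmic reticulum, stood near the lower limit of detection, with 1.02, 0.282 and 0.700 CPM in EXT and 4.44, 4.25 and 3.40 CPM in SED libraries (log2 -2.57, adjusted p = 0.0490, over 0.05 in each fit without 1 library). Cadm3, an adhesion protein best known from neurons and their sheaths, measured 114, 125 and 101 CPM in EXT and 190, 202 and 172 CPM in SED libraries (log2 -0.73, SE 0.11, adjusted p = 0.0122, up to 0.0819 with 1 library left out). Schwann cell markers did not overlap between the groups either, with sums of 40.0 to 43.4 CPM in EXT and 55.8 to 63.1 CPM in SED libraries. Cnp gave 16.7 to 21.5 CPM of that sum in EXT and 26.7 to 33.2 CPM in SED libraries, while the defining marker Sox10 was at or below 0.823 CPM, and none of the 5 markers tested was called; their part in the Cadm3 result was not tested.

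**Figure D3:**
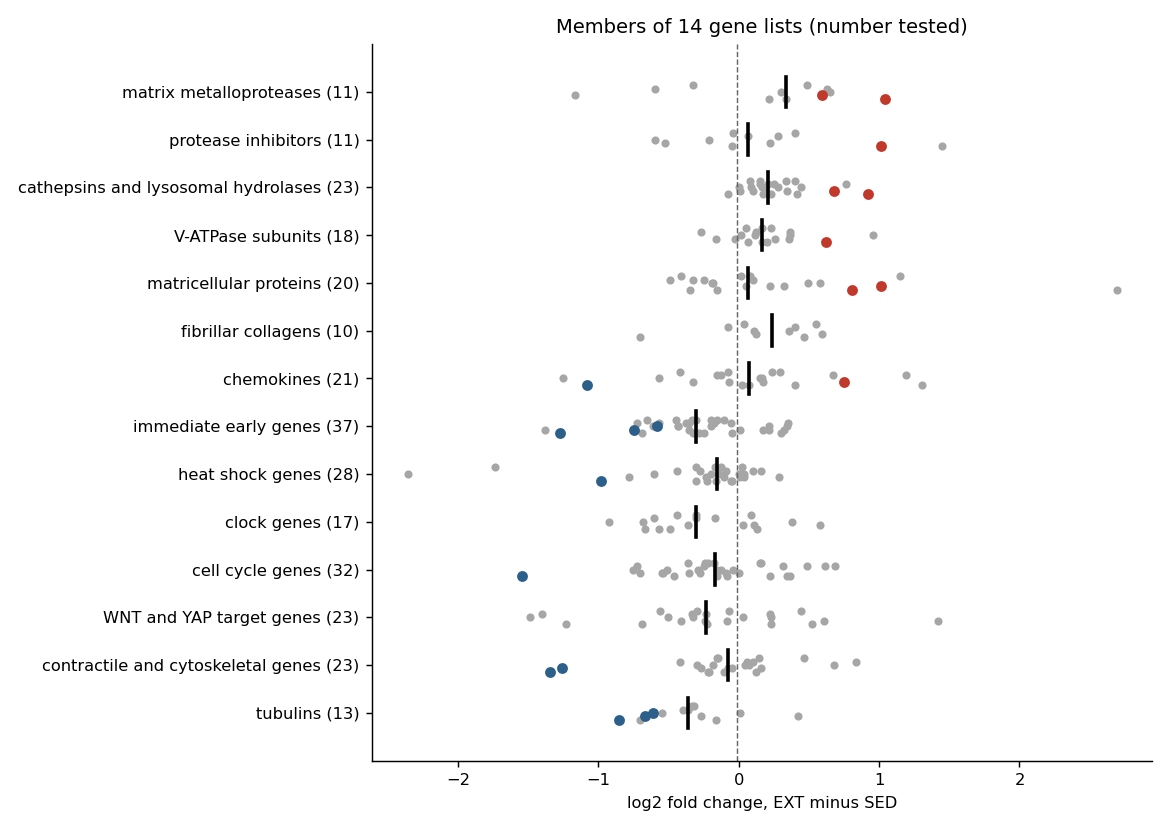
Log2 fold change (EXT minus SED, x axis) of each tested member of 14 gene lists (rows, with the number tested). Red and blue points are called members, grey points are not called, the black bars are list medians and the dashed line is the median of all genes; the lysosomal row lies to the right of that line except for 1 gene, and the tubulin row lies to its left except for 2.

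Among immediate early genes, which cells switch on soon after a stimulus, 3 fell. Zfp36, an RNA-binding protein that speeds decay of inflammatory mRNAs, measured 140, 170 and 190 CPM in EXT and 332, 262 and 246 CPM in SED libraries (log2 -0.75, SE 0.14, adjusted p = 0.0287, up to 0.154 with 1 library left out). Fosb, an AP-1 subunit, measured 133, 140 and 115 CPM in EXT and 222, 171 and 190 CPM in SED libraries (log2 -0.58, SE 0.12, adjusted p = 0.0490, over 0.05 in each fit without 1 library). Rrad, a small Ras-related GTPase that restrains calcium channels, measured 8.44, 15.8 and 13.7 CPM in EXT and 34.2, 26.7 and 30.9 CPM in SED libraries (log2 -1.27, SE 0.22, adjusted p = 0.0246, up to 0.0970 with 1 library left out). Of 37 immediate early genes tested, these 3 fell and 0 rose, against 26 lower (0.203%) and 36 higher (0.281%) of 12802 over all genes. The median of the 37 was -0.30, and 29 differences were negative. At an unadjusted p under 0.05 there were 14 negative and 4 positive ones (786 and 784 of 12802 over all genes).

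Further members just missed the threshold. Egr1, an early transcription factor, measured 456, 430.1 and 566 CPM in EXT and 744, 756 and 656 CPM in SED libraries (adjusted p = 0.0501), and Junb, another AP-1 subunit, 804, 698 and 811 CPM in EXT and 1507, 1134 and 1002 CPM in SED libraries (adjusted p = 0.0595). Klf6, a transcription factor, had the opposite sign, with 653, 634 and 715 CPM in EXT and 535, 512 and 579 CPM in SED libraries (adjusted p = 0.221). Without SED 1, which held the highest level of Zfp36, Fosb and Junb, and without EXT 1, 0 members were called, and without EXT 2 or SED 2 it was 1.

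Heat shock genes gave 1 call among 28, with a median of -0.15. Hspb1, a small chaperone that also binds actin, measured 39.3, 42.6 and 40.7 CPM in EXT and 113, 62.9 and 66.6 CPM in SED libraries (log2 -0.98, SE 0.19, adjusted p = 0.0490). SED 1 was far above the other SED libraries, and without it the log2 difference was -0.66. Hspa1a, an inducible HSP70, had the widest gap, with 15.6, 23.1 and 27.3 CPM in EXT and 170, 108 and 61.3 CPM in SED libraries, but was not called (log2 -2.36, adjusted p = 0.110). Under RLE scaling the list had 0 calls.

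Further genes that fell came from separate lists. Cish, a SOCS family inhibitor of cytokine signalling through STAT5, measured 15.7, 15.9 and 15.96 CPM in EXT and 34.6, 26.3 and 29.8 CPM in SED libraries (log2 -0.93, SE 0.17, adjusted p = 0.0287, up to 0.147 with 1 library left out), and was the 1 call among 18 JAK-STAT feedback genes. Txnip, which restrains glucose uptake and binds thioredoxin, measured 88.4, 78.8 and 74.3 CPM in EXT and 134, 111 and 123 CPM in SED libraries (log2 -0.61, SE 0.11, adjusted p = 0.0321, up to 0.152 with 1 library left out), and was the 1 call among 21 glucocorticoid and fasting induced genes. Cdc25b, a phosphatase that promotes entry into mitosis, measured 5.53, 3.24 and 5.04 CPM in EXT and 15.6, 9.05 and 15.8 CPM in SED libraries (log2 -1.55, SE 0.30, adjusted p = 0.0409, up to 0.167 with 1 library left out). It was the 1 call among 32 cell cycle genes, whose median was -0.17.

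Slc5a3, the carrier of the osmolyte myo-inositol, fell by 0.55 on the log2 scale (adjusted p = 0.0260), Ppl, periplakin, by 0.74 (adjusted p = 0.0424), Rab3il1, a Rab exchange factor, by 0.77 (adjusted p = 0.0409), and Bin1, a membrane-curving protein, by 0.53 (adjusted p = 0.0490). Each of these 4 lost its call in at least 1 fit without 1 library.

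Among 13 mechanosensitive channel genes tested, 1 was called. Tmem63a, a channel opened by membrane tension, measured 85.2, 84.9 and 90.4 CPM in EXT and 128, 123 and 127 CPM in SED libraries (log2 -0.54, SE 0.10, adjusted p = 0.0307, up to 0.159 with 1 library left out). Piezo1 (chromosome 8 from 122481698 to 122551329) measured 97.8, 88.4 and 97.3 CPM in EXT and 87.0, 78.8 and 84.8 CPM in SED libraries. Its groups did not overlap, but they lay close together, and the log2 difference of 0.18 (SE 0.11) had an adjusted p of 0.534. In the other 2 cohorts Piezo1 averaged 31.99 ± 9.95 CPM after acute exercise (AEX) and 19.5 ± 2.95 CPM in sedentary wild-type cells, and 54.2 ± 5.14 CPM after AEX and 43.0 ± 4.38 CPM in sedentary cells of Pdgfra-Cre mice with intact Piezo1 (SD, n = 3 each).

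Promoter windows, from 250 bases before to 50 after the start that RefSeq gives on GRCm38.p6, were found for 49 of the 62 called genes. Windows of 3 genes that rose are printed, because each holds a short motif, in capitals, that few windows hold: the AP-1 site TGANTCA in Mmp3 (chr9:7445572-7445871, + strand) and the cAMP response element TGACGTCA in Dio2 (chr12:90738989-90739288, − strand) and Plk2 (chr13:110394794-110395093, + strand).
Mmp3: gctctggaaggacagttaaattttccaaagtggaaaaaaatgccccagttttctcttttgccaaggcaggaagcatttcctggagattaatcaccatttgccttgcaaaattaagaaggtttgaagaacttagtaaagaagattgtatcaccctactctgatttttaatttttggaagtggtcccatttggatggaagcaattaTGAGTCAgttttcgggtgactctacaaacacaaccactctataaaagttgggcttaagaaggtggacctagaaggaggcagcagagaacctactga
Dio2: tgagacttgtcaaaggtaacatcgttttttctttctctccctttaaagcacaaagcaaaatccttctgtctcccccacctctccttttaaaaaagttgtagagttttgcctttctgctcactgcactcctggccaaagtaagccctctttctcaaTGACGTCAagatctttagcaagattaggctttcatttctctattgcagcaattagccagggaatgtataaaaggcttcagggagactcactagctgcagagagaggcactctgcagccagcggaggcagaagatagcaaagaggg
Plk2: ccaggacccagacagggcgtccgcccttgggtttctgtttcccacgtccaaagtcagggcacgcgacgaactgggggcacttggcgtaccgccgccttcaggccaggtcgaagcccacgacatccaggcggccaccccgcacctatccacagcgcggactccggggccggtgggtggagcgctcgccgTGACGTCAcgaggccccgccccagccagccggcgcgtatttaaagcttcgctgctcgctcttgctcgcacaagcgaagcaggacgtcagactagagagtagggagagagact
On either strand, TGANTCA was found in 7.81% and TGACGTCA in 1.79% of all 32851 windows. Counting a gene with several windows once, TGANTCA was held by 4 of the 28 matched genes that rose (Mmp3, Srxn1, Klhl21 and Neu2) and by 1 of the 21 matched genes that fell (Cadm3), against 8.97% of all symbols with a window. For TGACGTCA the counts were 3 of 28 (Dio2, Plk2 and Zwint) and 0 of 21, against 2.03% of all symbols. The E-box CACGTG, the other motif searched, was held by 2 of 28 genes that rose (Ctsf and Top1) and 3 of 21 that fell (Lasp1, Rab3il1 and Tubb5), against 8.09% of all symbols. The first base of the motif lies 46 bases before the start in Mmp3, 95 in Dio2 and 62 in Plk2. A match describes the letters in a window and not binding.

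Acute exercise was set beside training in 2 further cohorts with controls of their own, so no library is shared. Both had cells sorted 1 day after AEX, in wild-type mice (3 AEX and 3 SED libraries) and in Pdgfra-Cre mice with intact Piezo1 (3 AEX and 3 SED libraries, Cre being driven by the gene of the sorted receptor). The difference between the 2 responses, EXT minus SED less AEX minus SED, was tested in 1 edgeR fit per acute cohort. Since each kind of exercise has its own cohort, the 2 cannot be told apart in this test. It called 35 of 14270 genes (0.245%) with the wild-type cohort, 22 higher (0.154%) and 13 lower (0.0911%) in the training response, and 141 of 14110 genes (0.999%) with the Pdgfra-Cre cohort, 69 higher (0.489%) and 72 lower (0.51%). The 35 became 2 to 445 with 1 library left out, the extremes being without SED 2 of the training cohort and without AEX 1, and the 141 became 48 without EXT 1 and 345 without 1 of the Pdgfra-Cre SED libraries. AEX against SED alone called 94 of 12777 genes (0.736%) in the wild-type cohort, 33 higher (0.258%) and 61 lower (0.477%), and 153 of 13459 genes (1.14%) in the Pdgfra-Cre cohort, 101 higher (0.75%) and 52 lower (0.386%).

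After AEX, the genes that rose with training were divided in sign. Of the 36, 31 were tested in the wild-type acute cohort, where 19 were positive, with a median log2 value of 0.13, against 50.47% of all genes. All 36 were tested in the Pdgfra-Cre cohort, where 19 were positive, with a median of 0.04, against 48.76% of all genes. Of the 26 that fell with training, 15 were negative in the wild-type cohort (49.53% of all genes) and 11 in the Pdgfra-Cre cohort (51.21% of all genes). Taken from the acute side, 25 of the 31 tested genes called higher after AEX in the wild-type cohort were positive with training (median 0.30), as were 61 of 99 in the Pdgfra-Cre cohort (median 0.10), against 6171 of 12802 over all genes. Of genes called lower after AEX, 40 of 61 were negative with training in the wild-type cohort and 22 of 50 in the Pdgfra-Cre cohort, against 6630 of 12802 over all genes.

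Timp1 and Tnc rose in all 3 cohorts. Timp1 measured 185, 859 and 646 CPM after AEX and 22.7, 29.9 and 21.6 CPM in sedentary wild-type cells (log2 4.51, adjusted p = 0.0395), and 1077, 705 and 1137 CPM after AEX and 150, 142 and 94.1 CPM in sedentary Pdgfra-Cre cells (log2 2.92, adjusted p = 9.64e-05). The training response minus the acute one was -1.88 with the Pdgfra-Cre cohort (SE 0.26, adjusted p = 0.00180) and -3.47 with the wild-type cohort, where it was not called (adjusted p = 0.0740). For Tnc the log2 response to AEX was 7.04 in wild-type cells and 4.09 in Pdgfra-Cre cells. Tnc averaged 780 ± 590 CPM after AEX and 5.87 ± 1.56 CPM in sedentary wild-type cells (SD, n = 3 each). It averaged 793 ± 300 CPM after AEX and 46.4 ± 8.67 CPM in sedentary Pdgfra-Cre cells. In the training cohort it averaged 210 ± 35.6 CPM in EXT and 120 ± 18.1 CPM in SED libraries. The difference of the responses was called with both acute cohorts, at -6.20 (SE 0.78, adjusted p = 0.0278, up to 0.105 with 1 library left out) and -3.26 (SE 0.36, adjusted p = 0.000919, at most 0.00492). The sedentary level differed between cohorts, and its part in these values was not tested. Ccn4 rose after AEX in wild-type cells (log2 3.15, adjusted p = 0.0397). Its training response minus the acute one was -2.11 with the wild-type cohort, without a call (SE 0.59, adjusted p = 0.163). With the Pdgfra-Cre cohort it was 0.37 (SE 0.31, adjusted p = 0.667).

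For Ctsk, Mmp14, Ctsf and Fbln7 the training response was the higher one. Ctsk measured 182, 155 and 217 CPM after AEX and 262, 278 and 243 CPM in sedentary wild-type cells, and 347, 362 and 349 CPM after AEX and 522, 491 and 447 CPM in sedentary Pdgfra-Cre cells. The level after AEX was below that of SED in both cohorts without a call, and the difference of the responses was called, at 1.44 with the wild-type cohort (SE 0.22, adjusted p = 0.0120, up to 0.0523 with 1 library left out) and 1.41 with the Pdgfra-Cre cohort (SE 0.20, adjusted p = 0.00201, at most 0.0115). With the wild-type cohort Mmp14 differed by 1.38 (adjusted p = 0.0120), Ctsf by 1.34 (adjusted p = 0.0455) and Fbln7 by 1.10 (adjusted p = 0.0388), and with 1 library left out these p-values reached 0.0669, 0.125 and 0.116. With the Pdgfra-Cre cohort Mmp14 differed by 1.23 (adjusted p = 0.00718), Ctsf by 1.56 (adjusted p = 0.000561) and Fbln7 by 1.85 (adjusted p = 0.000561), and these calls held with each library left out. Ctsf and Fbln7 were themselves called lower after AEX in the Pdgfra-Cre cohort (log2 -0.85 and -1.04, adjusted p = 0.0210 and 0.0174).

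**Figure D4:**
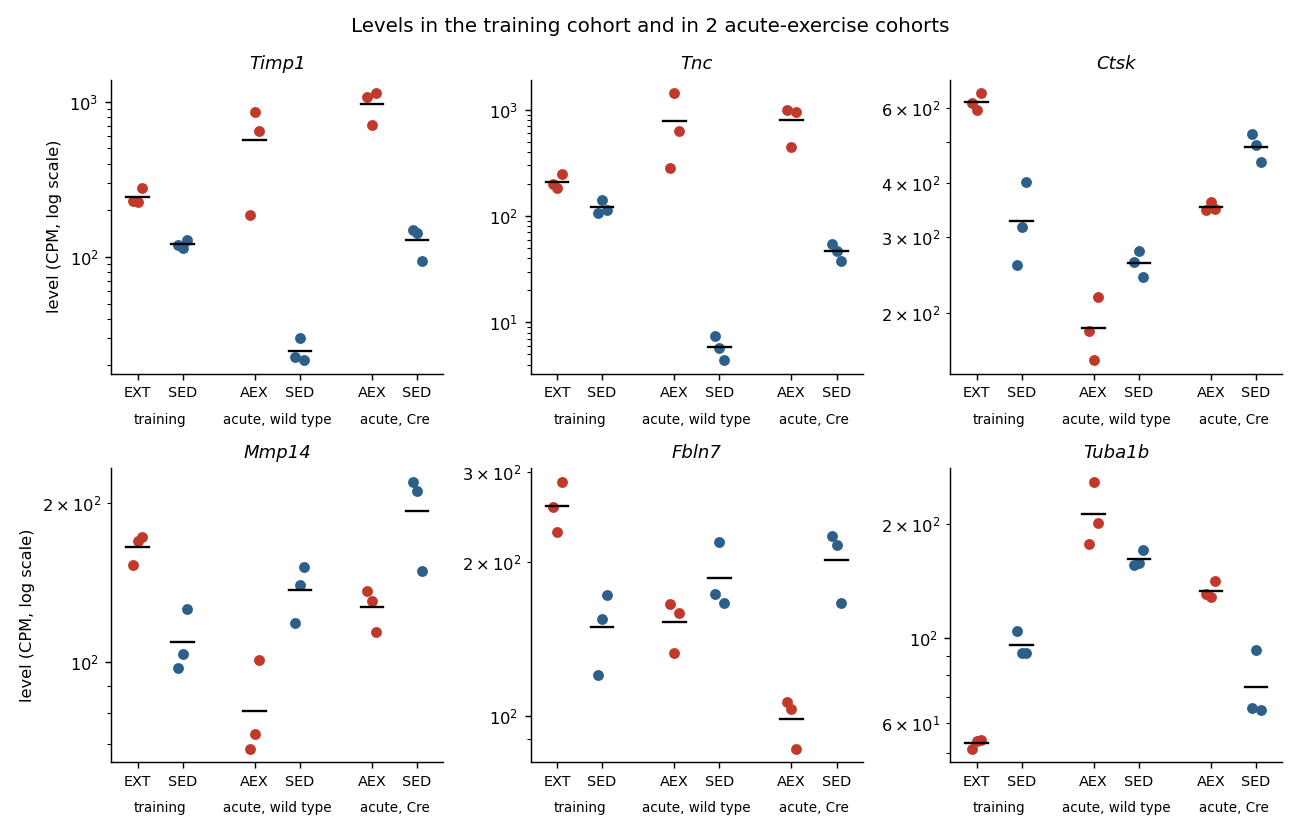
CPM (y axes, log scale) of 6 genes in each library, EXT beside SED of the training cohort, and AEX beside SED of the wild-type and Pdgfra-Cre (marked Cre) acute cohorts, each scaled within its own cohort; bars are means (n = 3). Timp1 and Tnc are higher after both kinds of exercise, while Ctsk, Mmp14 and Fbln7 are higher in EXT and Tuba1b is lower in EXT than in its SED group.

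Tuba1b had the opposite sign in both acute cohorts. It measured 176, 257 and 201 CPM after AEX and 156, 158 and 171 CPM in sedentary wild-type cells (log2 0.39, adjusted p = 0.269), and 131, 128 and 141 CPM after AEX and 65.6, 93.1 and 64.7 CPM in sedentary Pdgfra-Cre cells (log2 0.84, adjusted p = 0.0389). The difference of the responses was -1.22 (SE 0.19, adjusted p = 0.0120, up to 0.0669 with 1 library left out) with the wild-type cohort and -1.67 (SE 0.21, adjusted p = 0.000838, at most 0.00492) with the Pdgfra-Cre cohort. Tuba1a differed by -1.20 (adjusted p = 0.00718), Tubb5 by -1.33 (adjusted p = 0.0137) and Rhoa by -0.89 (adjusted p = 0.0415) with the Pdgfra-Cre cohort, and none of these 3 with the wild-type cohort (adjusted p = 0.139, 0.0621 and 0.195). With 1 library left out the Pdgfra-Cre values of Tubb5 and Rhoa reached an adjusted p of 0.0526 and 0.118.

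For several training genes the test found no difference from the acute response, which does not show that the responses are alike. For Mmp3 the difference was 1.91 (SE 0.72, adjusted p = 0.352) with the wild-type cohort and 0.73 (SE 0.22, adjusted p = 0.108) with the Pdgfra-Cre cohort. With the wild-type cohort it was 0.37 for Dio2 (SE 0.22, adjusted p = 0.573), -0.26 for Ackr2 (SE 0.33, adjusted p = 0.826) and 1.80 for Vdr (SE 0.58, adjusted p = 0.206). With the Pdgfra-Cre cohort it was 0.85 for Dio2 (SE 0.28, adjusted p = 0.154), -0.75 for Ackr2 (SE 0.20, adjusted p = 0.0705) and 0.63 for Vdr (SE 0.77, adjusted p = 0.792).

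**Figure D5:**
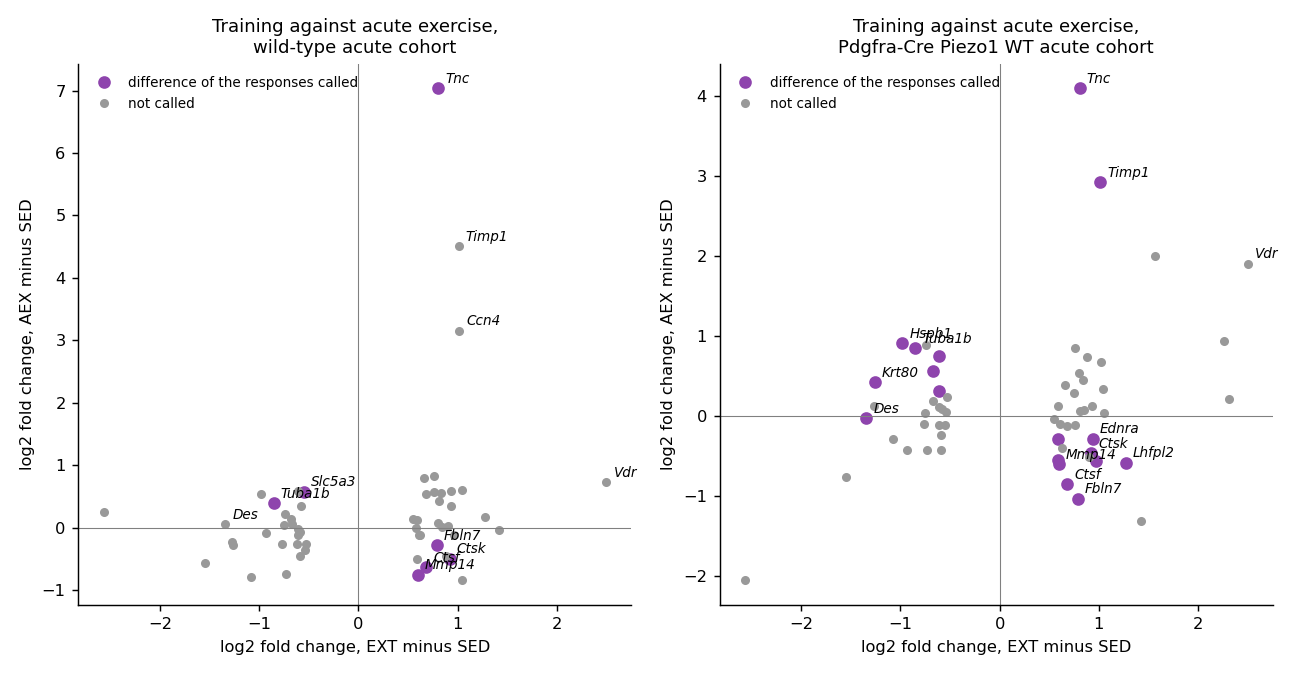
Log2 fold change with training (x axes) and with acute exercise (y axes) for the named training genes tested in the wild-type (left) and the Pdgfra-Cre Piezo1 WT (right) acute cohort. Purple points have a called difference between the responses; Tnc and Timp1 lie far above 0 on both y axes, and Ctsk, Ctsf, Mmp14 and Fbln7 lie below 0 on both.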

How the data were processed

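Each library was made from 1000 sorted cells, per the labels' protocols. Whole-number counts for 55011 symbols in 90 libraries were deposited by the authors. Per the submitters' processing notes they used STAR 2.7.3a, mm10 and featureCounts; the labels name no featureCounts version, strandedness or rule for multiply matching reads. Of the columns, 78 were matched to a sample and 12, of the Pdgfra-Cre cohort, to a group only.

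The 6 training libraries were fitted alone in R 4.3.3 with edgeR 4.0.16 (filterByExpr with a minimum count of 10, TMM scaling, robust quasi-likelihood test, Benjamini-Hochberg adjustment over all genes tested). Each difference of responses was fitted over 12 libraries. SE is the log2 fold change divided by the square root of F. The code was checked on simulated counts.

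The genes, 36 response lists and 14 marker lists were chosen with earlier results of these data known. The rule named every called gene, list members with the smallest p, and up to 8 response differences per direction at 10 CPM or more; some genes it names are not reported here, and Mmp2, Timp3, Reck, Ctsd, Npc2, Postn, Cxcl1, Egr1, Junb, Klf6, Hspa1a, Sgk1 and Wif1 were added after their values were seen, as were the tubulin and proton pump families. Alternatives tried were DESeq2 1.42.0, RLE scaling, the unfiltered table, thinning, a non-robust fit, a spread shared with the acute cohort, the replicate number as a block and each library left out. Gene positions came from GENCODE M21 and promoters from RefSeq.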

Additional observations from a re-analysis of the deposited data

Results flagged for a closer look

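Among the genes called with training and those with the largest differences, the response to training differed from the response to acute exercise in 20 genes with the wild-type acute cohort and in 30 with the Pdgfra-Cre Piezo1 WT cohort, by edgeR's interaction test at an adjusted p under 0.05. Values are log2 differences, EXT minus SED less AEX minus SED, and can come from either response. Called with training itself were 5 higher and 2 lower genes of the 20, and 11 higher and 7 lower genes of the 30. With 1 of the 12 libraries left out in turn, 1 of the 20 calls (Aspn) and 16 of the 30 held in every fit.

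With the wild-type cohort, 22 of all 35 called differences were positive and 13 negative. The 20 were taken as up to 8 per direction plus genes called with training, so that rule partly sets their split by sign. The difference was positive, meaning a response to training above that to AEX, for 11 of the 20. It was 1.47 for Aspn (asporin, a small proteoglycan), 1.79 for Fn1 (fibronectin), 1.10 for Fbln7, 1.44 for Ctsk, 1.38 for Mmp14 and 1.34 for Ctsf. It was 2.58 for Pi15 (a secreted peptidase inhibitor family member), 1.89 for Pdgfd (a PDGF ligand), 2.13 for Mettl27, 1.64 for Mtcl1 (a microtubule crosslinker) and 1.98 for Trim30d. It was negative, at -6.20, for Tnc, -2.50 for Runx1 (a transcription factor of blood and connective tissue), -2.05 for Ier3, -1.57 for Trib1, -1.34 for Bhlhe41 (a clock repressor), -1.35 for Cyb5r1, -2.39 for Mthfd1l (a mitochondrial folate enzyme), -1.10 for Slc5a3 and -1.22 for Tuba1b. The log2 response was 0.11 to training and 2.64 to AEX for Runx1, 0.14 and -1.73 for Pdgfd, and 0.92 and -0.50 for Ctsk. Runx1 averaged 72.6 ± 10.7 CPM in SED of the training cohort, against 3.14 ± 0.816 CPM in SED and 19.9 ± 7.68 CPM after AEX of the acute cohort (SD, n = 3 each). Trib1 averaged 324 ± 20.5 CPM, 10.4 ± 0.901 CPM and 32.1 ± 13.5 CPM in these groups. The part of the sedentary levels was not tested. With the Pdgfra-Cre cohort the difference was not called for Runx1 (-0.42, adjusted p = 0.474) or Trib1 (-0.04, adjusted p = 0.969).

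With the Pdgfra-Cre cohort the difference was again positive for Ctsk at 1.41, Mmp14 at 1.23, Ctsf at 1.56, Fbln7 at 1.85 and Pi15 at 2.15. It was also positive for Mfap4 (a microfibril glycoprotein) at 2.47, Acp5 (tartrate-resistant acid phosphatase) at 2.21, Aoc3 (an amine oxidase) at 2.29, C1qtnf3 at 2.65, Lhfpl2 at 1.88, Smpdl3a at 1.17, Pld3 at 0.91, Ednra at 1.25, E2f6 at 1.56, E2f3 at 1.96 and Ighm, an immunoglobulin gene of B cells, at 2.92 (1.99, 2.82 and 1.11 CPM after AEX and 19.99, 21.6 and 6.09 CPM in its SED libraries). It was negative for Tnc at -3.26, Timp1 at -1.88, Tuba1b at -1.67, Tuba1a at -1.20, Tubb5 at -1.33, Rhoa at -0.89, Des at -1.28, Krt80 at -1.65 and Hspb1 at -1.86. Negative differences were further found for Ass1 (an enzyme of arginine synthesis) at -2.29, Gmppb at -2.04, Sdf2l1 (an endoplasmic reticulum chaperone partner) at -1.89, S100a4 at -1.82 and Hlf (a clock output factor) at -2.61. The log2 response was -0.01 to training and 2.31 to AEX for Ass1, and -0.11 and -3.00 for Ighm. Other genes named in the text also had called differences, for which no fit with a library left out was run. With the wild-type cohort it was -1.18 for Col27a1 (adjusted p = 0.0456). With the Pdgfra-Cre cohort it was 1.49 for Fn1 (adjusted p = 0.0391) and -1.65 for Ier3 (adjusted p = 0.0383), both called with the wild-type cohort too, 1.39 for Arntl (adjusted p = 0.00927), 1.14 for Mmp2 (adjusted p = 0.0229) and -1.54 for Cxcl1 (adjusted p = 0.00491). Each kind of exercise has a cohort of its own, so cohort and exercise cannot be told apart.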

How the results depend on the processing

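Against 62 genes called with training, DESeq2 called 218, the fit without a filter on low counts 344 and the fit with the spread shared with the acute wild-type cohort 4; with 1 library left out in turn, 12 to 117 were called. With the replicate number as a block 19 genes were called, 15 of them among the 62. Same-numbered libraries did not deviate together (correlations of -0.0571, 0.0156 and -0.011) and did not all correlate best with their own number. Such correlations cannot decide whether libraries of the same number were handled together. RLE scaling (58), thinning (63) and the non-robust fit (52) stayed within 1.5 times of 62. None of the 60 named genes changed direction in these settings. For the EXT response minus AEX response in the acute wild-type cohort, 35 genes were called, against 244 with DESeq2, 365 with no filter on low counts and 2 to 445 with 1 library left out; a replicate block nested in cohort gave 41. For the EXT response minus AEX response in the Pdgfra-Cre Piezo1 WT cohort, 141 genes were called, against 447 with DESeq2, 468 with no filter on low counts and 48 to 345 with 1 library left out. No block could be fitted there, since replicate numbers could not be tied to columns. The cause of these shifts was not tested. A fit with Y-linked expression as a covariate was not run, since all 6 libraries held such reads alike (160 to 199 CPM summed in EXT, 184 to 196 CPM in SED). With 3 libraries a group, single libraries decide most calls.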

Other observations

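Several gene groups held no called gene with training. Over all 12802 genes tested, 784 were positive and 786 negative at an unadjusted p under 0.05. Clock genes had a median log2 difference of -0.31 over 17 tested, with 1 positive and 7 negative members at an unadjusted p under 0.05. Bhlhe40, a clock repressor that hypoxia and load also induce, measured 319, 284 and 370.02 CPM in EXT and 552, 455 and 436 CPM in SED libraries (edgeR adjusted p = 0.0602), and Arntl, the clock activator BMAL1, 208, 205 and 182 CPM in EXT and 99.9, 156 and 141 CPM in SED libraries (edgeR adjusted p = 0.0942). Groups did not overlap for either gene. Of 23 WNT and YAP target genes, 8 were negative and 1 positive at an unadjusted p under 0.05, with a median of -0.23. Wif1, a secreted WNT inhibitor, measured 4.37, 8.04 and 8.96 CPM in EXT and 34.8, 10.4 and 15.1 CPM in SED libraries (edgeR adjusted p = 0.219).

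A further 4 lists held no call. The median was -0.08 over 37 nuclear respiratory chain genes, -0.07 over 23 cholesterol synthesis genes and -0.15 over 25 ER stress and ATF4 target genes. Interferon-stimulated genes had a median of 0.00 over 37 tested. Bdnf, a neurotrophin, measured 12.96, 12.8 and 7.42 CPM in EXT and 5.52, 1.92 and 3.40 CPM in SED libraries (edgeR adjusted p = 0.0730), and Sgk1, a kinase induced by glucocorticoids and serum, 959, 850.3 and 1055 CPM in EXT and 445, 569 and 730.2 CPM in SED libraries (edgeR adjusted p = 0.0678). Mfap4, a microfibril-associated glycoprotein, measured 671, 599 and 712 CPM in EXT and 258, 250 and 481 CPM in SED libraries, without overlap or a call (edgeR adjusted p = 0.145).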
